A study of Mus musculus with 203 samples.

Results

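The genes described here were the inhibitor of DNA binding genes Id1, Id2 and Id3 and 7 genes of the TGF-β and BMP pathway, Smad3, Smad6, Smad7, Pmepa1, Skil, Tgfbi and Tgfb1. They were chosen by symbol, partly because Id3 had shown a changed response to IL4 in cells with the Kdm1a knockdown, so the 10 genes are not a sample of the pathway. All 10 were among the 25094 genes of the RAW264.7 table, with 1 row each, and all 10 were among the 12905 genes tested. RAW264.7 is a mouse macrophage-like cell line of BALB/c origin. Total RNA was sequenced from 2 stable lines made with lentiviral shRNA and puromycin selection, one with an shRNA against GFP as the control (shGFP) and one with a single shRNA against Kdm1a (shKDM1A), so every group carried a vector and the knockdown rests on 1 shRNA. Each line was left without IL4 or given 20 ng/ml of IL4 for 6 h, which gave the 4 groups shGFP, shGFP with IL4, shKDM1A and shKDM1A with IL4, each of 4 libraries. KDM1A is a histone lysine demethylase, and IL4 is a cytokine that activates macrophages through the transcription factor STAT6. The 10 genes were also among the 16478 genes listed for bone marrow-derived macrophages, but that table holds only comparisons made by the authors, and its values were not used here.

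TGF-β ligands assemble a pair of type II and type I receptor kinases that phosphorylate Smad2 and Smad3, while BMP ligands use related receptors that phosphorylate Smad1 and Smad5. The phosphorylated proteins enter the nucleus with Smad4 and switch on target genes, among them the inhibitory SMADs, which limit the signal in turn. The ID proteins are classic BMP targets. They have a helix-loop-helix domain without a DNA-binding region, bind E proteins such as Tcf3, Tcf4 and Tcf12, and keep these from binding DNA.

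The stretches directly upstream of the start sites of 3 genes with higher values under IL4 are shown, because they differ in the motifs they hold. They are the 250 bases before the RefSeq start, on the gene's own strand from 5′ to 3′, from build GRCm38.p6, at chr4:136143572-136143821 for Id3, chr12:25096093-25096342 on the minus strand for Id2 and chr9:64022060-64022309 on the minus strand for Smad6. Capitals mark matches, on either strand, to CAGAC, the short element that SMAD proteins bind, to GGCGCC, a GC-rich SMAD element, or to the spacing bound by STAT6, which is TTC and GAA with any 4 bases between them.
Id3: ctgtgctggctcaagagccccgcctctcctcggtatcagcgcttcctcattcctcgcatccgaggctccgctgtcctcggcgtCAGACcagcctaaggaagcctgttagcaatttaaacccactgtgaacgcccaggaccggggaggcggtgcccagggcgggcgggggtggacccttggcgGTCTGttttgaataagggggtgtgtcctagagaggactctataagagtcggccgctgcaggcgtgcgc
Id2: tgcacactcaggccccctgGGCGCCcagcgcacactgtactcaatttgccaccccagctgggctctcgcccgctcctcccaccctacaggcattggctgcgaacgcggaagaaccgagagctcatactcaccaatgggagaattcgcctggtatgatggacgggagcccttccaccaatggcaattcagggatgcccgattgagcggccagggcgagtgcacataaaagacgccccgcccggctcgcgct
Smad6: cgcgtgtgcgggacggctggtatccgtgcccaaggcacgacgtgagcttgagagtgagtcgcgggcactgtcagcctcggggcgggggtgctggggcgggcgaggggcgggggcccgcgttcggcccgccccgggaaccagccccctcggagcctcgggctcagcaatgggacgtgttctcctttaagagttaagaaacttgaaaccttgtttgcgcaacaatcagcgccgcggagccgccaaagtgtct
In the Id3 stretch CAGAC matched at positions -167 and -68, counted back from the start site, the second time on the other strand. The Id2 stretch held 1 match to GGCGCC, at position -231, and the Smad6 stretch held no match to any of the 3 motifs. Sequence was at hand for 6 of the 10 genes. Among the other 3, the Tgfbi stretch held CAGAC at positions -239 and -85 and GGCGCC at position -77, and those of Smad3 and Tgfb1 held no match. Of 32851 mouse promoters in windows of the same length, 42.2% held CAGAC, 9.59% held GGCGCC and 5.85% held the STAT6 spacing. A match of this kind is a string of letters and was not tied to binding or to a response, and the windows do not include enhancers.

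Before these genes are described, the libraries were compared with their labels. The libraries held from 17554721 to 27782568 tags, and 2 libraries of the same group differed by a median of 0.036 to 0.056 log2 units over the genes tested. Kdm1a averaged 11.18 ± 0.04 (SD, n = 4) in shGFP cells and 10.30 ± 0.05 in shKDM1A cells, a fall by 0.88 on the log2 scale to 0.542 of the control (standard error 0.03, adjusted p = 5.6e-13, limma). With IL4 it fell by 0.79 (adjusted p = 2.2e-12). All 8 macrophage markers examined passed the filter, and their summed level was 17.6 to 17.7 in shGFP cells, 17.3 with IL4, 17.8 to 17.9 in shKDM1A cells and 17.7 to 17.8 with IL4. Lyz2 was the highest of them, and single markers moved both ways. With IL4 in shGFP cells Adgre1 rose from 9.95 to 11.18 and Csf1r from 14.98 to 15.24. Cd14 fell from 14.62 to 13.69 and Lyz2 from 16.90 to 16.37, and Cd68, Itgam, Spi1 and Fcgr1 were slightly lower. None of the 5 T cell, 4 B cell, 5 fibroblast and 4 epithelial markers passed the filter. Of 4 endothelial markers, Pecam1 and Kdr passed it, with levels of at most 1.44 and 1.52. In bulk RNA such as this, fewer cells that express a gene and less RNA per cell cannot be told apart.

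Each value below is the deposited level on a log2 scale, and each difference is between group means on that scale, from 1 limma model over the 16 libraries. A gene was called when its p-value, adjusted over all genes tested, was under 0.05. The comparisons are not independent of each other, because each group enters more than 1 of them. IL4 in shGFP cells and shKDM1A without IL4 share the untreated shGFP libraries, for example. Comparisons with IL4 asked which genes respond to the cytokine, and comparisons of the lines asked which genes differ between shKDM1A and shGFP cells. With 1 stable line for each shRNA, loss of KDM1A and other differences between the lines cannot be told apart.

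With IL4 the ID genes and the pathway inhibitors on the list, Smad6, Smad7, Pmepa1 and Skil, had higher values. Smad3 and the ligand Tgfb1 did not. In shGFP cells, 7 of the 9 genes tested were called higher, Id1, Id2, Smad6, Smad7, Pmepa1, Skil and Tgfbi, and none lower, where 13.1% of all genes were called higher and 13.7% lower. In shKDM1A cells 6 of the 9 were called higher, beside 13.6% of all genes, and Smad3 was called lower, beside 13.5%. Id3 was not tested in these comparisons, because its difference between them is what put it on the list. Over the 9 genes without Id3 the median difference with IL4 was 0.85 in shGFP cells and 0.94 in shKDM1A cells, while the medians over all genes were -0.00049 and -0.0025. An absolute difference of at least 1 was measured for 4 of these 9 genes in each line. Over all genes this was so for 26 genes in shGFP cells (0.201%) and 21 in shKDM1A cells (0.163%).

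Among the ID genes, Id1 had the lowest level. Its values were 6.70, 6.48, 6.58 and 6.59 in shGFP cells and 8.03, 7.90, 7.91 and 7.84 with IL4. In shKDM1A cells they were 6.35, 6.37, 6.28 and 6.31, and with IL4 7.57, 7.40, 7.35 and 7.40. Every IL4 library was above every untreated library of its line, and every shKDM1A library was below every shGFP library of the same treatment. With IL4, Id1 rose by 1.33 (standard error 0.05, 2.52-fold) in shGFP cells and by 1.10 (2.14-fold) in shKDM1A cells, with adjusted p-values of 8e-12 and 9.6e-11 by limma. Against shGFP, Id1 fell by 0.26 without IL4 (adjusted p = 0.00075) and by 0.49 with IL4 (adjusted p = 1e-06).

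Id2 is required for several lineages of lymphoid and dendritic cells. It measured 7.71, 7.70, 7.83 and 7.60 in shGFP cells and 9.39, 9.48, 9.46 and 9.38 with IL4. The shKDM1A libraries measured 7.66, 7.55, 7.49 and 7.40, and 9.36, 9.23, 9.26 and 9.14 with IL4. The rise with IL4 was 1.72 in either line (standard error 0.06, 3.29-fold and 3.30-fold, adjusted p = 1.1e-12 and 1.9e-12 by limma). The difference between the 2 rises was 0.0034 (95% confidence interval -0.17 to 0.17) and was not tested, as for every gene on the list. Id2 fell by 0.18 in shKDM1A cells both without IL4 (adjusted p = 0.018) and with IL4 (adjusted p = 0.019). Without IL4 the 2 lines overlapped, since the highest shKDM1A library, at 7.66, was above the lowest shGFP library, at 7.60. The call without IL4 was lost when shGFP replicate 3 was left out (-0.14, adjusted p = 0.065), when shKDM1A replicate 4 was left out (-0.14, adjusted p = 0.067), and with no filter on low values (adjusted p = 0.067). The call with IL4 was lost without shGFP with IL4 replicate 2 (-0.16, adjusted p = 0.053), without shKDM1A with IL4 replicate 4 (-0.14, adjusted p = 0.062) and with no filter (adjusted p = 0.068).

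Id3 held the values that put it on the list. It measured 8.56, 8.44, 8.33 and 8.35 in shGFP cells and 10.35, 10.27, 10.36 and 10.33 with IL4. In shKDM1A cells it measured 7.52, 7.47, 7.32 and 7.35, and 10.01, 10.02, 10.04 and 9.99 with IL4. The 4 groups did not overlap, with shKDM1A lowest and shGFP with IL4 highest. As a description, Id3 was higher with IL4 by 1.91 (standard error 0.05, 3.75-fold) in shGFP cells and by 2.60 (6.05-fold) in shKDM1A cells. Its difference between shKDM1A and shGFP cells was -1.0 without IL4 (0.499 of the control) and -0.31 with IL4 (0.805 of the control). The difference between the 2 IL4 responses was 0.69 (standard error 0.07), so most of the gap between the lines without IL4 was no longer there with IL4. The average effects do not use that difference, and these were tested. Averaged over the lines, Id3 rose with IL4 by 2.25 (standard error 0.03, 4.76-fold, adjusted p = 4.2e-17 by limma). Averaged over the treatments, it fell by 0.66 with the knockdown (adjusted p = 8.5e-11, standard error 0.03).

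**Figure D1:**
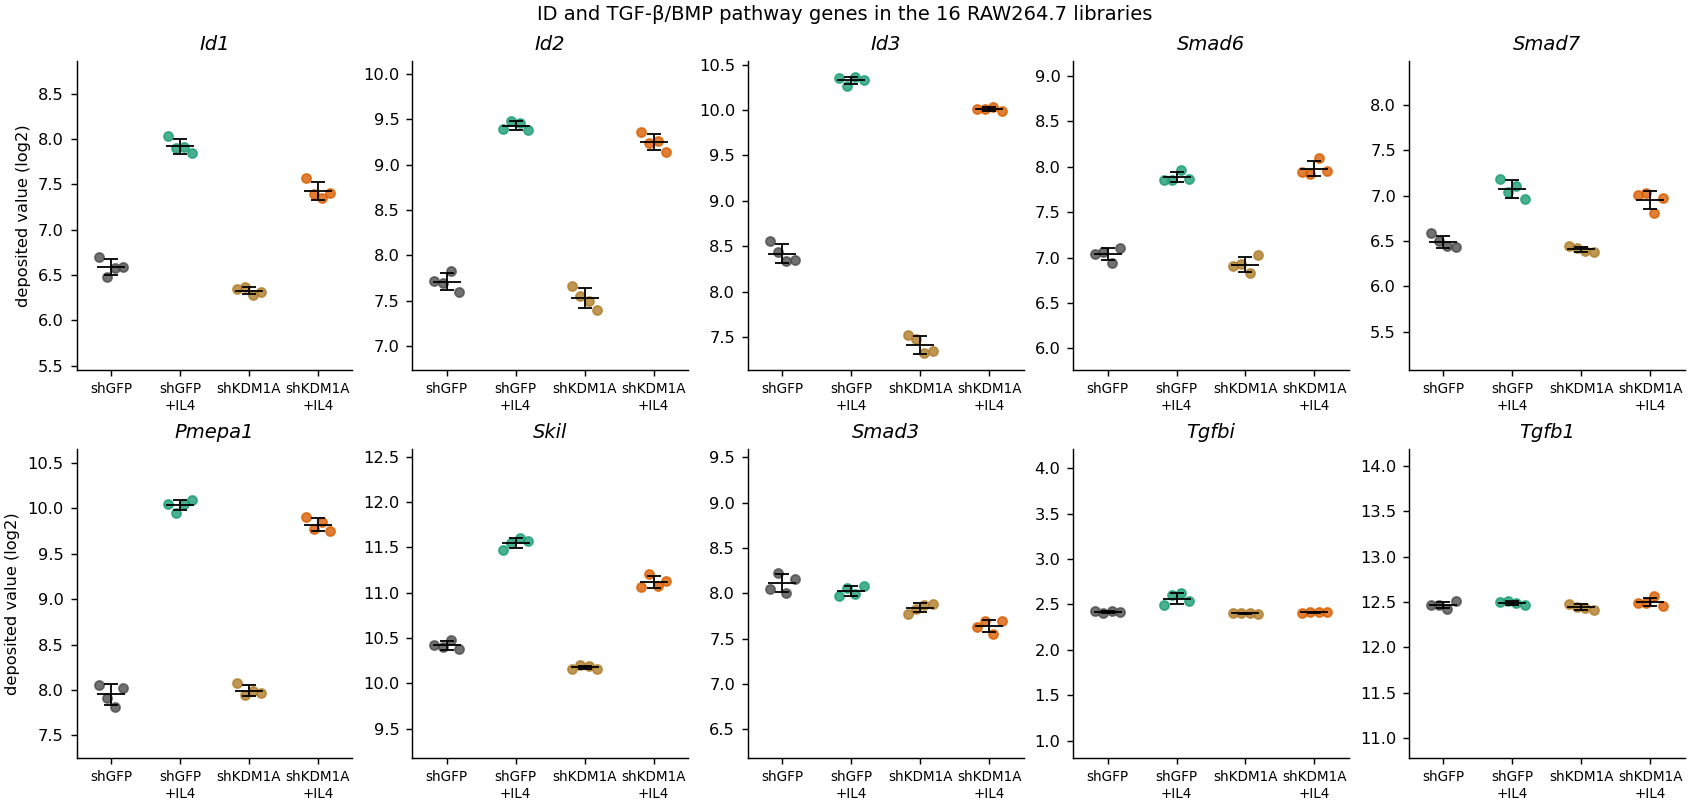
Deposited log2 value of each of the 10 genes (vertical axis, the same span of 3.4 log2 units in every panel) in the 16 libraries, by group; dots are libraries, and bars are the mean and SD of 4. The Id3 groups run from a mean of 7.42 in shKDM1A cells to 10.33 in shGFP cells with IL4, while Tgfb1 stays between 12.41 and 12.56 in every library.

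The inhibitory SMADs block receptor signalling, Smad6 mainly that of BMP and Smad7 that of both branches. Smad6 measured 7.04, 7.06, 6.94 and 7.11 in shGFP cells and 7.86, 7.85, 7.96 and 7.87 with IL4. The values in shKDM1A cells were 6.90, 6.93, 6.83 and 7.03, and 7.95, 7.92, 8.10 and 7.95 with IL4. It rose with IL4 by 0.85 (standard error 0.05, 1.80-fold, adjusted p = 7e-10 by limma) in shGFP cells and by 1.06 (2.08-fold, adjusted p = 5.8e-11) in shKDM1A cells, with no overlap. Between the lines its values overlapped, and the differences of -0.11 without IL4 (adjusted p = 0.068) and 0.09 with IL4 (adjusted p = 0.13) were not called. The first was called when shGFP replicate 3 (-0.15, adjusted p = 0.028), shKDM1A replicate 4 (-0.15, adjusted p = 0.021) or shKDM1A with IL4 replicate 3 (-0.11, adjusted p = 0.038) was left out, and after quantile normalization (-0.15, adjusted p = 0.020).

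Smad7 measured 6.44 to 6.58 in shGFP cells, 6.96 to 7.19 with IL4, 6.38 to 6.45 in shKDM1A cells and 6.81 to 7.03 with IL4. The untreated and IL4 libraries did not overlap in either line, and the lines overlapped under either treatment. Smad7 rose with IL4 by 0.58 (standard error 0.05, 1.5-fold, adjusted p = 2e-07 by limma) in shGFP cells and by 0.55 (1.46-fold, adjusted p = 4.9e-07) in shKDM1A cells. The differences between the lines, -0.08 without IL4 and -0.12 with IL4, were not called (adjusted p = 0.22 and 0.071). Their average of -0.10 was called (adjusted p = 0.027), but not without shGFP replicate 1 (-0.09, adjusted p = 0.060), shGFP with IL4 replicate 1 (-0.08, adjusted p = 0.060) or shKDM1A with IL4 replicate 3 (-0.08, adjusted p = 0.051), or with no filter (adjusted p = 0.088). The difference with IL4 was called after quantile normalization (-0.14, adjusted p = 0.025), with a replicate block (adjusted p = 0.030) and without shGFP with IL4 replicate 4 (-0.16, adjusted p = 0.023) or shKDM1A with IL4 replicate 2 (-0.15, adjusted p = 0.042). After quantile normalization the difference without IL4 was called too (-0.13, adjusted p = 0.044).

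Pmepa1 and Skil act on the signal inside the cell. Pmepa1 encodes a membrane protein that holds Smad2 and Smad3 back from the receptor, and Skil encodes SnoN, a corepressor that binds SMADs on DNA. Both are known targets of the TGF-β signal that they limit. Pmepa1 measured 8.06, 7.91, 7.81 and 8.02 in shGFP cells and 10.05, 9.95, 10.05 and 10.10 with IL4. The shKDM1A libraries measured 8.07, 7.94, 7.99 and 7.97, and 9.91, 9.78, 9.85 and 9.75 with IL4. The rise with IL4 in shGFP cells was 2.09 (standard error 0.05, 4.25-fold, adjusted p = 3e-14 by limma), ranking 1 among the 12905 genes. In shKDM1A cells the rise was 1.83 (3.55-fold, adjusted p = 2.1e-13), ranking 2. The lines overlapped without IL4 (difference 0.04, adjusted p = 0.57), and with IL4 Pmepa1 fell in shKDM1A cells by 0.22 (adjusted p = 0.0026), with no overlap.

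Skil measured 10.42, 10.40, 10.48 and 10.38 in shGFP cells and 11.47, 11.55, 11.60 and 11.56 with IL4. In shKDM1A cells it measured 10.16, 10.20, 10.19 and 10.16, and 11.06, 11.20, 11.07 and 11.12 with IL4. As for Id1, the groups did not overlap in any of the 4 comparisons. Skil rose with IL4 by 1.13 (standard error 0.03, 2.18-fold, adjusted p = 4e-13 by limma) in shGFP cells and by 0.94 (1.92-fold, adjusted p = 4.7e-12) in shKDM1A cells. Against shGFP it fell by 0.24 without IL4 (adjusted p = 2.5e-05) and by 0.43 with IL4 (adjusted p = 3e-08).

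Smad3, the receptor-activated SMAD of the TGF-β branch, did not follow the inhibitors on the list. It measured 8.05, 8.22, 8.00 and 8.16 in shGFP cells and 7.98, 8.06, 7.99 and 8.08 with IL4. In shKDM1A cells it measured 7.78, 7.83, 7.87 and 7.88, and 7.63, 7.70, 7.56 and 7.70 with IL4. In shGFP cells the IL4 and untreated libraries overlapped, and the difference of -0.08 was not called (adjusted p = 0.21, limma). Within the shKDM1A line Smad3 fell by 0.20 with IL4 (adjusted p = 0.0037, standard error 0.05). Against shGFP it fell by 0.27 without IL4 (adjusted p = 0.00019) and fell by 0.38 with IL4 (adjusted p = 4.5e-06), and every shKDM1A library was below every shGFP library of the same treatment.

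Tgfb1 encodes the TGF-β ligand made by macrophages. Its values ran from 12.42 to 12.51 in shGFP cells, 12.46 to 12.51 with IL4, 12.41 to 12.48 in shKDM1A cells and 12.46 to 12.56 with IL4. The groups overlapped in all 4 comparisons, and none of these was called. The 95% confidence interval of the difference with IL4 was -0.03 to 0.08 in shGFP cells and 0.0025 to 0.11 in shKDM1A cells. The average difference with IL4, 0.04 (adjusted p = 0.085, limma), was called without shGFP replicate 4 (0.05, adjusted p = 0.043) or shKDM1A with IL4 replicate 4 (0.05, adjusted p = 0.049). The average difference between the lines, -0.0067 (adjusted p = 0.78), was called after quantile normalization (-0.05, adjusted p = 0.015). Tgfbi, which encodes a secreted matrix protein induced by TGF-β, was close to the lower end of the scale, at 2.41 to 2.43 in shGFP cells and 2.50 to 2.62 with IL4. In shKDM1A cells it was at 2.40 to 2.41, and at 2.41 to 2.42 with IL4. It rose with IL4 by 0.15 (standard error 0.02, adjusted p = 0.00015, limma) in shGFP cells, and the difference of 0.01 in shKDM1A cells was not called (adjusted p = 0.76). Against shGFP with IL4 it fell by 0.15 in shKDM1A cells with IL4 (adjusted p = 6.9e-05). At this level the deposited values are nearly constant between libraries, so these differences are small and not comparable in size with those of the other genes, and the row is listed under a non-coding transcript of the locus (NR_155548).

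**Figure D2:**
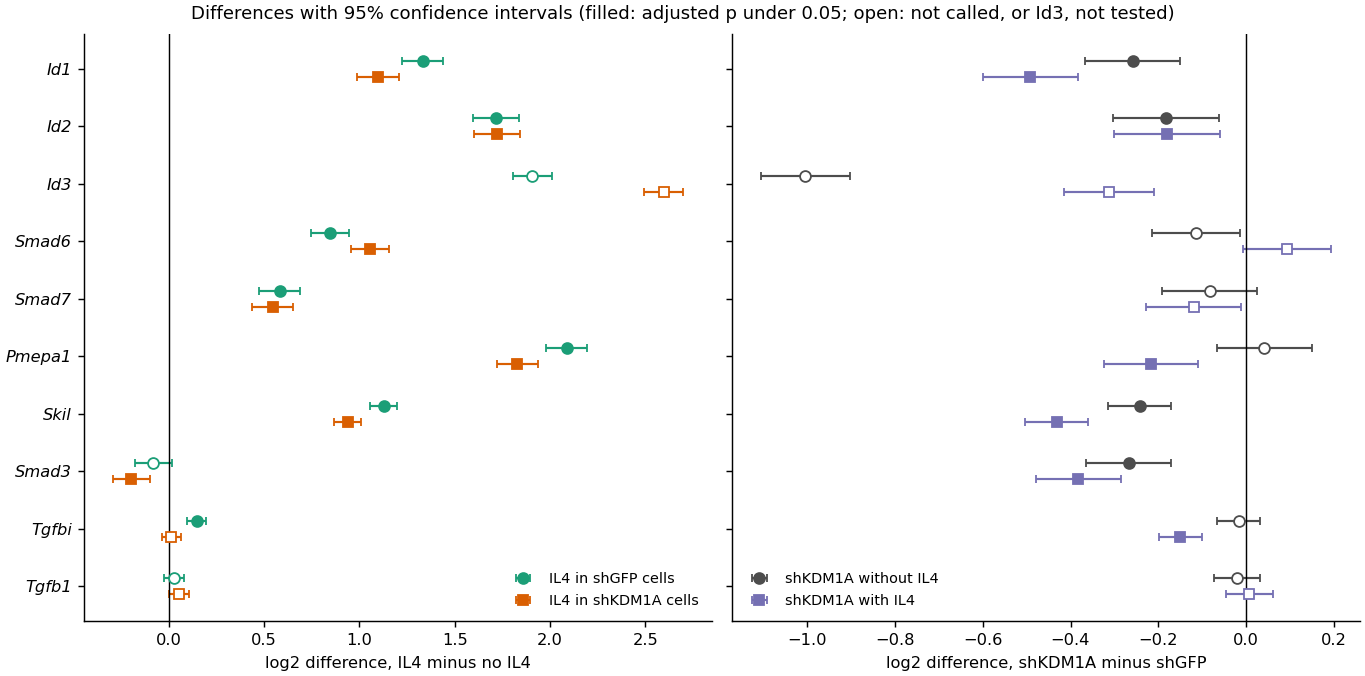
Difference in log2 value with IL4 in each line (left) and in shKDM1A against shGFP under each treatment (right) for the 10 genes, with 95% confidence intervals from limma; filled symbols are called at an adjusted p under 0.05, and Id3 is drawn open because it was not tested. With IL4, Pmepa1 lies at 2.09 and 1.83 and Id2 at 1.72 in both lines, while the differences between the lines span -1.0 for Id3 to 0.09 for Smad6.

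Between the lines, 4 of the 9 genes tested were called lower in shKDM1A cells without IL4 (Id1, Id2, Smad3 and Skil), beside 18.4% of all genes, and none higher. With IL4, 6 of 9 were called lower, these 4 with Pmepa1 and Tgfbi, beside 19.8% of all genes, and none higher. The median over the 9 genes without Id3 was -0.11 without IL4 and -0.18 with IL4, against -0.0027 and -0.0024 over all genes. Leaving Id3 aside, the libraries of the lines did not overlap for 4 of the other 9 genes without IL4 and 6 with IL4, each time with shKDM1A lower, where this held for 17.8% and 17.4% of all genes. Without IL4 these were Id1, Smad3, Skil and Tgfbi, and not Id2, whose libraries overlapped. Tgfbi differed there by only -0.02, near the lower end of the scale, and was not called (adjusted p = 0.62, limma). None of the 9 was higher without overlap, beside 19.6% and 19% of all genes. With IL4, the libraries did not overlap and were higher for 7 of these 9 genes in shGFP cells, beside 13.9% of all genes, and none was lower, beside 14.4%. In shKDM1A cells 7 were higher and 1 lower, beside 13% and 12.7%. These 7 include Tgfbi, whose difference of 0.01 was not called. For the averages of both lines or both treatments, which allow Id3 a test, 8 of the 10 genes were called higher with IL4 and 1 lower, beside 16.8% and 17.3% of all genes. In the average over treatments 7 of the 10 were called lower in shKDM1A cells and none higher, beside 25.1% and 24.5% of all genes. These 7 were Id1, Id2, Id3, Smad3, Smad7, Skil and Tgfbi. The average for Pmepa1, -0.09, was not called (adjusted p = 0.053), but was called in 8 of the alternatives. These left out shGFP replicate 3, shGFP with IL4 replicate 2, shKDM1A replicate 1 or shKDM1A with IL4 replicate 1 (adjusted p = 0.0089 to 0.033), or used a filter at 5, quantile normalization, a trended prior variance or a replicate block (adjusted p = 0.026 to 0.038).

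The IL4 responses of the lines were also set side by side for each gene, as values with no test. The response in shKDM1A cells minus that in shGFP cells was positive for Id3 (0.69), Smad6 (0.21), Tgfb1 (0.03) and Id2 (0.0034). It was negative for Pmepa1 (-0.26), Id1 (-0.23), Skil (-0.19), Tgfbi (-0.13), Smad3 (-0.11) and Smad7 (-0.04). The standard errors of these differences ran from 0.03 for Tgfbi to 0.08 for Id2. Over all genes 3.56% were called larger in shKDM1A cells and 2.57% smaller, and nothing is read from this for the list. The signs for Id2 and Smad7 changed under some of the alternatives, with ranges of -0.04 to 0.05 and -0.07 to 0.01.

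**Figure D3:**
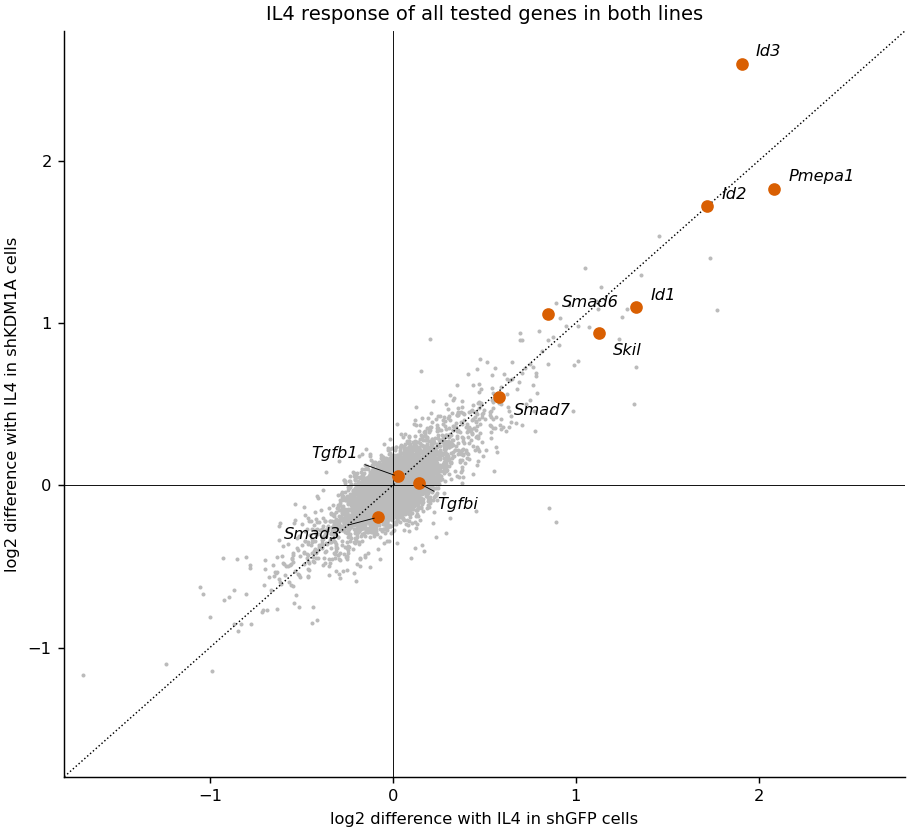
Log2 difference with IL4 in shGFP cells (horizontal axis) and in shKDM1A cells (vertical axis) for the 12905 genes tested (grey) with the 10 genes in orange; the dotted line marks equal differences. Id3 lies above the line at 1.91 and 2.60, Pmepa1 below it at 2.09 and 1.83, and Tgfb1, Tgfbi and Smad3 lie within the cloud of all genes.

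Levels of different genes were compared per kilobase of exon, since long transcripts collect more tags. In untreated shGFP cells the order from the top was Tgfb1 at 11.35, Id3 at 8.50, Skil at 7.60, Id2 at 7.37, Id1 at 6.38, Pmepa1 at 5.77, Smad3 at 5.76, Smad6 at 5.47, Smad7 at 4.34 and Tgfbi at 0.98, as log2 level per kilobase. Only the neighbours Pmepa1 and Smad3 overlapped between libraries in that group. With IL4 Id2 stood above Skil (9.09 and 8.73), and Pmepa1 stood above Id1 with overlapping libraries (7.86 and 7.71). In shKDM1A cells Id3 kept its second place at 7.49, close above Skil at 7.36 with no overlap, and Smad3 and Smad6 overlapped at 5.50 and 5.36. With IL4 Id3 stood at 10.09 in these cells. As deposited, without the division by length, Skil and not Id3 came second in every group.

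**Figure D4:**
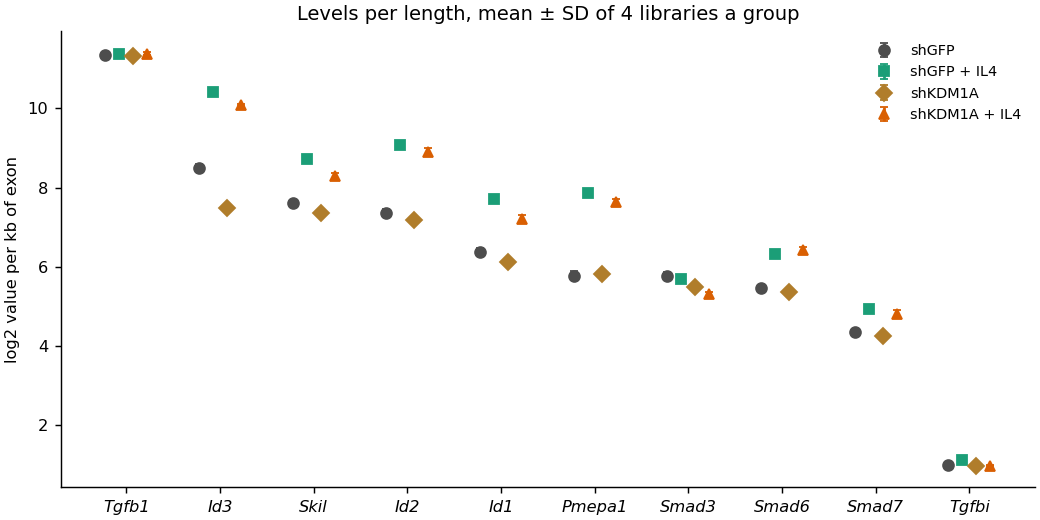
Mean log2 level per kilobase of exon of the 10 genes (vertical axis) in the 4 groups, with the SD of 4 libraries as bars; genes are ordered by their level in untreated shGFP cells. Tgfb1 is highest at 11.33 to 11.38 in every group and Tgfbi lowest at 0.96 to 1.12, and Id3 moves between 7.49 and 10.40.

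In the mm9 build of the files, Id1 lies on chromosome 2 from 152561987 to 152563146 and Pmepa1 on chromosome 2 from 173049966 to 173102034. Id2 lies on chromosome 12 from 25778664 to 25780957, Id3 on chromosome 4 from 135699737 to 135701307, and Skil on chromosome 3 from 30993980 to 31021845. Smad3 and Smad6 are both on chromosome 9, from 63494574 to 63605801 and from 63800883 to 63869866. Tgfbi lies on chromosome 13 from 56710947 to 56740720 and Tgfb1 on chromosome 7 from 26472021 to 26490096. The exons of the listed rows hold 948 bases for Id3, 1157 for Id1 and 1267 for Id2, and 2166 to 7057 for the others with Tgfb1 the shortest and Skil the longest. No exon of the 10 genes was overlapped by an exon of another gene in the annotation of that build, so counting on both strands did not mix them with a neighbour that the annotation lists.

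The genes whose values followed each gene most closely over the 16 libraries are given as a description, since the libraries form 4 groups and share their conditions. For Id3 these were Fam20c (Pearson r = 0.995), Lpcat1 (0.991) and Pald1 (0.991), and Fam20c had IL4 differences of 0.80 and 0.95, with -0.32 and -0.16 between the lines. For Id2 they included Pdgfa (r = 0.995) and Cd74 (r = 0.994). Cd74, the invariant chain of antigen presentation, was also among the 3 for Smad6 and Pmepa1. For Id1 the first was Skil (r = 0.988), before Extl3 and Itgb5, and Itgb5, an integrin subunit, was lower in shKDM1A cells by 0.46 without IL4. For Smad7 they were Hnrnpll, Id1 and Tlr8, for Skil Smap2, Adgre1 and Vgll4, for Smad6 Vim and Casp6 beside Cd74, and for Pmepa1 Picalm and Pdgfa beside Cd74.

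Further genes of the pathway came from a list of 80, of which 55 passed the filter. With IL4, 18 of the 55 were called higher and 5 lower in shGFP cells, beside 13.1% and 13.7% of all genes. In shKDM1A cells 15 were called higher and 6 lower, beside 13.6% and 13.5%. Their median differences with IL4 were 0.06 and 0.0055. Between the lines, 19 were called higher and 8 lower in shKDM1A cells without IL4, beside 19.7% and 18.4% of all genes. With IL4, 20 were called higher and 14 lower, beside 20.9% and 19.8%. In each comparison more of these genes were called higher than lower.

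Of 12 further ligands only Tgfb3, Bmp6, Gdf11 and Gdf15 passed the filter, each with a mean of at most 2.50, and none was called in any comparison. Over all genes 13.1% to 20.9% were called higher and 13.5% to 19.8% lower in these comparisons, so that 0 of 4 is near the background. Among 17 genes that activate, hold or block ligands 7 passed. Itgav, the integrin subunit of latent TGF-β activation, rose with IL4 from 11.05 to 12.19 in shGFP cells and from 11.04 to 12.26 in shKDM1A cells (differences 1.14 and 1.22, adjusted p = 5.9e-10 and 3.3e-10 by limma). Furin, the convertase that cleaves the TGF-β precursor, rose by 0.33 and 0.34, and Nrros, which tethers latent TGF-β on myeloid cells, fell by 0.19 and 0.10.

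Tgfbr1, the type I TGF-β receptor, rose with IL4 by 0.99 in shGFP cells (adjusted p = 1.2e-11, limma) and by 0.46 in shKDM1A cells (adjusted p = 1.7e-07), and fell in shKDM1A cells by 0.27 without IL4 and by 0.80 with IL4 (adjusted p = 3.7e-05 and 9.6e-11). Tgfbr2, the type II receptor, fell with IL4 by 0.47 and by 0.52, and rose in shKDM1A cells by 0.20 without IL4 and by 0.15 with IL4. Acvrl1, a type I receptor of BMP9 and BMP10, rose by 0.29 to 0.35 in all 4 comparisons. Of 11 receptors tested, 4 were called higher and 2 lower with IL4 in each line, beside 13.1% and 13.7% of all genes in shGFP cells and 13.6% and 13.5% in shKDM1A cells. In shKDM1A cells 4 were called higher and 2 lower without IL4, and 3 higher and 5 lower with IL4, beside 19.7% and 18.4% of all genes without IL4 and 20.9% and 19.8% with IL4.

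Among the SMADs outside the 10 genes, Smad1, Smad2, Smad4 and Smad5 passed the filter and none was called with IL4, beside 13.1% of all genes higher and 13.7% lower in shGFP cells and 13.6% and 13.5% in shKDM1A cells. The 1 call between the lines was for Smad5, which fell by 0.24 in shKDM1A cells with IL4 (adjusted p = 0.00028, limma), beside 19.8% of all genes called lower. With 4 genes these counts are near the background. Of 15 further regulators of the signal, 4 were called higher and 1 lower with IL4 in shGFP cells, and 1 higher and 1 lower in shKDM1A cells, beside the same shares. Between the lines, 8 were called higher in shKDM1A cells under either treatment, while 2 were called lower without IL4 and 4 with IL4, beside 19.7% and 18.4% of all genes without IL4 and 20.9% and 19.8% with IL4. Ski, the corepressor related to Skil, rose with IL4 by 0.46 and by 0.31, and fell in shKDM1A cells by 0.07 and by 0.23. Tgif2, another SMAD corepressor, fell in shKDM1A cells by 0.70 without IL4 (adjusted p = 1.5e-09) and by 0.52 with IL4, and Zfyve9, which anchors SMADs to receptors, rose by 0.49 and by 0.35.

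Of the E proteins that ID proteins bind, 3 were tested. Tcf3 rose with IL4 by 0.11 and by 0.14 (adjusted p = 0.0054 and 0.00057 by limma) and fell in shKDM1A cells by 0.13 and by 0.10. Tcf12 was not called with IL4 (0.06 and -0.06), and rose in shKDM1A cells by 0.29 and by 0.18. Tcf4 rose by 0.15 with IL4 in shGFP cells, differed by -0.0014 in shKDM1A cells, and rose between the lines by 0.24 and by 0.09. Id4 did not pass the filter. Of 11 further target genes tested, 6 were called higher with IL4 in each line, beside 13.1% and 13.6% of all genes, while 1 was called lower in shGFP cells and 2 in shKDM1A cells, beside 13.7% and 13.5%. Between the lines, 5 of these targets were called higher and 2 lower in shKDM1A cells without IL4, beside 19.7% and 18.4% of all genes, and 6 higher and 2 lower with IL4, beside 20.9% and 19.8%. Their median differences between the lines were 0.09 without IL4 and 0.15 with IL4, positive where the medians of the 9 genes above were negative. Tgm2 rose with IL4 by 0.49 and by 0.44 and fell in shKDM1A cells by 0.22 and by 0.26. Bhlhe40 rose with IL4 by 0.55 and by 0.57 and was not called between the lines (differences -0.0063 and 0.01, adjusted p = 0.91 and 0.78).

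**Figure D5:**
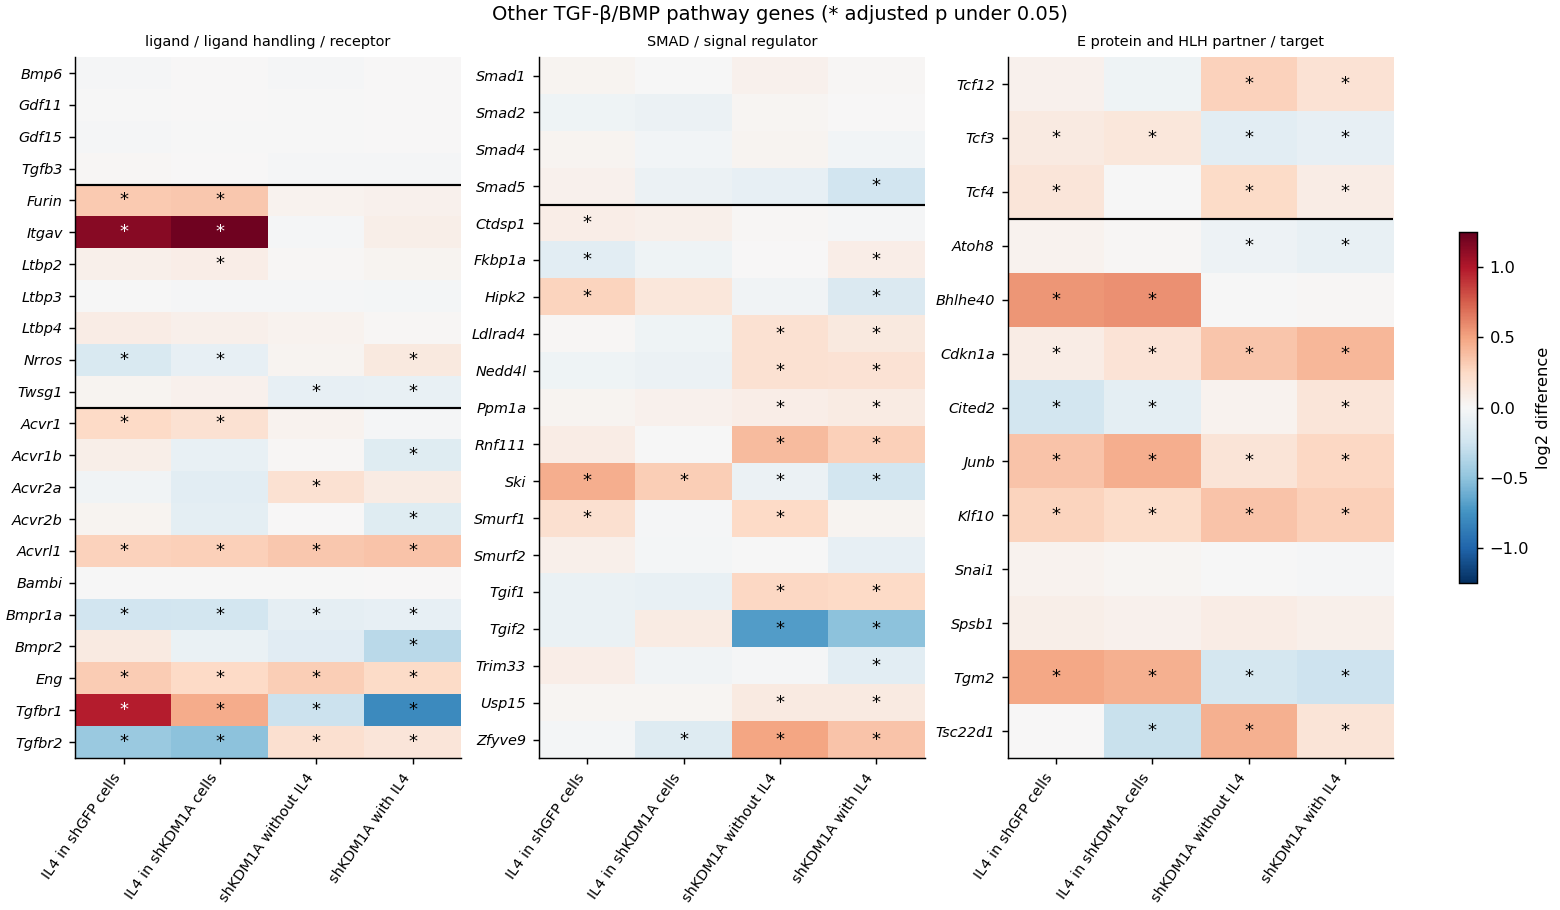
Log2 differences in the 4 comparisons (columns) for 54 of the 55 other pathway genes that passed the filter (rows, by role, with lines between roles); red is higher, blue is lower, and a star marks an adjusted p under 0.05. Itgav is the darkest red at 1.14 and 1.22 with IL4, and Tgfbr1 changes colour from 0.99 with IL4 in shGFP cells to -0.80 in shKDM1A cells with IL4.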

How the data were processed

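RNA-seq libraries of RAW264.7 cells were aligned to mm9 by the authors, and the labels and methods name HISAT2 and Bowtie2 for alignment, HOMER for counting on exons of both strands with transcripts condensed to 1 row per gene, and DESeq2 for comparison. The table deposited by the authors gives 1 log2 value per gene and library, written with decimal commas and held nearly constant where tags are few, and its transformation is not given in the sources used here. Because they are not counts, no count model was fitted, and moderation understates changes of weakly expressed genes. Both tables also hold fold changes and raw and adjusted p-values of comparisons by the authors, which were not used, and the macrophage table from bone marrow holds nothing else.

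Groups came from the labels (4 groups, 4 libraries each, and 0 columns of unmapped samples). The methods speak of biological replicates for the experiments in general, but the labels do not say which libraries came from separate cultures, so p-values measure the spread between these libraries, part of which may be technical. No 2 libraries were identical. Genes that reached a log2 value of 1 in 4 or more libraries were fitted with limma 3.58.1 in R 4.3.3 (a means model of the 4 groups by lmFit, then eBayes), with Benjamini-Hochberg adjustment over all genes per contrast. On simulated data for the effect of IL4 in shGFP cells the step recovered 197 of 200 changed genes of 12905, with 9 false calls. Each planted difference was at least 0.3 in size. Recovery of smaller differences, such as many of those between the lines, was not simulated.

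The 10 genes, the pathway list and the markers were chosen with earlier results of these data known, so no p-value was adjusted over the list alone and no list was tested as a set. Genes with an adjusted p under 0.05 and an absolute change of at least 0.3, and Id3, are described in full. From the pathway list, up to 3 called genes of each role with the largest change are named; a few genes that these rules select are not reported here. Most alike are the 3 genes with the highest Pearson r, for genes whose group means span at least 0.5. Promoter sequences are from RefSeq (GRCm38.p6). Alternatives were no filter, a filter at 5, only the groups compared, a replicate block, centring on medians, a trended prior variance, quantile normalization, levels per length, and leaving out each library.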

Additional observations from a re-analysis of the deposited data

Results flagged for a closer look

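Of 40 sets of 4 libraries (10 genes in 4 groups), 2 held a library that stood apart by Dixon's criterion, where chance gives about 1 in 20. Smad6 in shGFP cells with IL4 had its highest library at 7.96 with the nearest other at 7.87, a gap of 0.852 of the group's range. Tgfbi in shKDM1A cells with IL4 had its lowest library at 2.41 with the nearest other at 2.42, a gap of 0.856 of a range that was itself small.

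Smad6 was also below the mean of shGFP in all 4 shKDM1A libraries without IL4 and above it in all 4 with IL4. The effect of the knockdown with IL4 minus that without IL4 was 0.208 on the log2 scale. This difference was not tested, and neither effect was called on its own.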

How the results depend on the processing

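No called difference changed direction under any alternative that gave it a value, and a filter at 5 gave none for Tgfbi. Of 70 differences of single genes 6 changed sign, none of them called in the main model and each at most 0.04 in size there. These were the average knockdown effects of Smad6 and Tgfb1, the difference between the lines for Pmepa1 without IL4 and for Tgfb1 with IL4, and the differences in IL4 response of Id2 and Smad7. The average for Tgfb1 was called after quantile normalization (-0.05, adjusted p = 0.015, limma). Counts of genes called in each of the 4 comparisons and the 2 averages stayed within 1.5 times. For the difference in IL4 response, 459 genes were called larger in shKDM1A cells and 332 smaller. With no filter on low values, which adds genes to both the limma fit and the adjustment, the counts were 253 and 178. Leaving out 1 library at a time gave 300 to 611 larger, the lowest without shGFP with IL4 replicate 3, and 228 to 493 smaller. The calls of single genes that changed are given with the results. Centring or quantile normalization moved the median over all genes by at most 0.01.

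The labels do not say whether replicate numbers pair the libraries, and the correlations do not decide it. Deviations from group means correlated from -0.34 to 0.27 between same-numbered libraries of different groups (median 0.04). Between libraries with other numbers they correlated from -0.33 to 0.36 (median -0.0096). Of 16 libraries, 7 correlated best with their own number. With the replicate number as a block, 1690 genes were called higher with IL4 in shGFP cells (1694 without the block), and among the 10 genes Smad7 in shKDM1A cells with IL4 (adjusted p = 0.030) and the average for Pmepa1 (adjusted p = 0.026) became calls, and no call was lost. Genes that did not pass the filter, most of the ligands among them, were not tested for a change.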
